A study of Mus musculus with 14 samples.

Results

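CAR, the constitutive androstane receptor encoded by Nr1i3, and the cytochrome P450 genes of the Cyp2b subfamily were followed in liver RNA of Snell dwarf and wild type mice. All probe sets whose gene symbol in the array annotation is Nr1i3, Cyp2b9, Cyp2b10 or Cyp2b13 were taken. The 4 genes, of 8252 named on the array, have 6 of its 12488 probe sets, 3 for Nr1i3 and 1 for each Cyp2b gene. All 6 exceeded the limit on low signals set for testing.

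CAR is a nuclear receptor of hepatocytes that senses drugs, bile acids and hormones. In its resting state it is held in the cytoplasm; once activated it moves to the nucleus, pairs with the retinoid X receptor and switches on genes of drug and steroid clearance. Cyp2b enzymes are mono-oxygenases of the endoplasmic reticulum, and Cyp2b10 is the gene most often used as a readout of CAR activity in mouse liver. Cyp2b9 and Cyp2b13 are textbook examples of mouse liver genes that are higher in females than in males, a difference set by the pattern of growth hormone release.

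Each array held liver RNA of 1 mouse. Dwarf mice carry the Snell mutation of Pit-1 (Pou1f1), the pituitary transcription factor without which cells making growth hormone, prolactin and thyrotropin do not form. Wild type control mice were the comparison at both ages. At 6 months there were 4 wild type mice (animals 82, 84, 86 and 88) and 4 dwarf mice (83, 85, 87 and 89). At 22 months there were 3 wild type mice (1, 2 and 24) and 3 dwarf mice (3, 4 and 8). The labels state no sex, strain or batch, so a difference in any of these cannot be told apart from the groups here. Values are signal intensities per probe set on a linear scale. The number of arrays limits the precision, and the level of one probe set cannot be read against that of another.

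The 3 Cyp2b genes lie next to each other on chromosome 7 in the order Cyp2b10, Cyp2b13, Cyp2b9, while Nr1i3 is on chromosome 1. The 250 bases before the start of each Cyp2b gene are shown because the 3 genes were all higher in dwarf liver by unequal amounts. They come from RefSeq (GRCm38.p6, plus strand), with any match to AGGTCA, the core letters bound by many nuclear receptors, in capitals.
Cyp2b10, chr7:25897408-25897657: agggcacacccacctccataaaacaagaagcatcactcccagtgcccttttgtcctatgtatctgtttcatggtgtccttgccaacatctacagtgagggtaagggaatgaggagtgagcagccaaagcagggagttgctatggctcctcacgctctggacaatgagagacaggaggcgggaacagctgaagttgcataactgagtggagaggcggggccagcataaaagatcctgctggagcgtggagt
Cyp2b13, chr7:26061245-26061494: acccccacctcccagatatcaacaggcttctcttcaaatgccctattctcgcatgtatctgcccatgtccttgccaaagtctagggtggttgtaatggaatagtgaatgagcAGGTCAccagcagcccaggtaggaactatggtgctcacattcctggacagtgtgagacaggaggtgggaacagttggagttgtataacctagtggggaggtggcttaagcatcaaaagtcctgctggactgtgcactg
Cyp2b9, chr7:26173159-26173408: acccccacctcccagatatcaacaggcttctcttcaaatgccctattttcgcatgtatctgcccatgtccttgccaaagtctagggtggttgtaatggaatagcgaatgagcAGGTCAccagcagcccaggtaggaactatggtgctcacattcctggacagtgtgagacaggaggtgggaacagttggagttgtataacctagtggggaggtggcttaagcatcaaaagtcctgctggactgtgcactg
The Cyp2b9 and Cyp2b13 sequences were 99.2% identical, 248 of 250 bases, and differed by T48C and C104T, written from Cyp2b9 to Cyp2b13 with positions counted from the 5′ end of the window. Cyp2b10 was 68.8% identical to either of them after alignment. The window of Nr1i3 (chr1:171213720-171213969) was 44.2% to 44.5% identical to the 3 others. AGGTCA, searched on both strands, was found once in Cyp2b9 and once in Cyp2b13, in both at position 113 of the window, 138 bases before the start. It was not found in Cyp2b10 or Nr1i3, and 14.02% of 32851 RefSeq promoter windows of this length hold it. TTCNNNGAA, the core letters of STAT5 sites, and TATAAA were in none of the 4 windows and in 7.02% and 12.37% of all. A match here is a run of letters and no measured site. Only exact letters within 250 bases were searched, so a missing match does not show that a gene lacks such a site.

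Every Nr1i3 and Cyp2b probe set had higher signals in dwarf than in wild type liver at both ages, with no overlap between genotypes in any of them. By limma's moderated test with Benjamini-Hochberg adjustment over all 7227 tested probe sets, 6 of 6 passed as higher at 6 months (background 6.37% of all tested) and 5 of 6 at 22 months (background 1.37%). Groups that do not overlap, with dwarf above, were found in 6 of 6 at 6 months against 9.31% of all tested and in 6 of 6 at 22 months against 10.3%. Passing as higher at both ages was met by 5 of the 6, against 0.609% of all tested (44 of 7227). Averaged over ages, 6 of 6 passed (background 4.65%), with adjusted p from 1.13e-08 for Cyp2b13 to 0.00679 for Nr1i3 104506_at. The 6 probe sets stand for 4 genes, since 3 read Nr1i3, so they do not count as independent members. The genes were also chosen with earlier results of these data known, so these counts are a description. In bulk tissue, more cells of a type and more RNA per cell cannot be told apart.

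**Figure D1:**
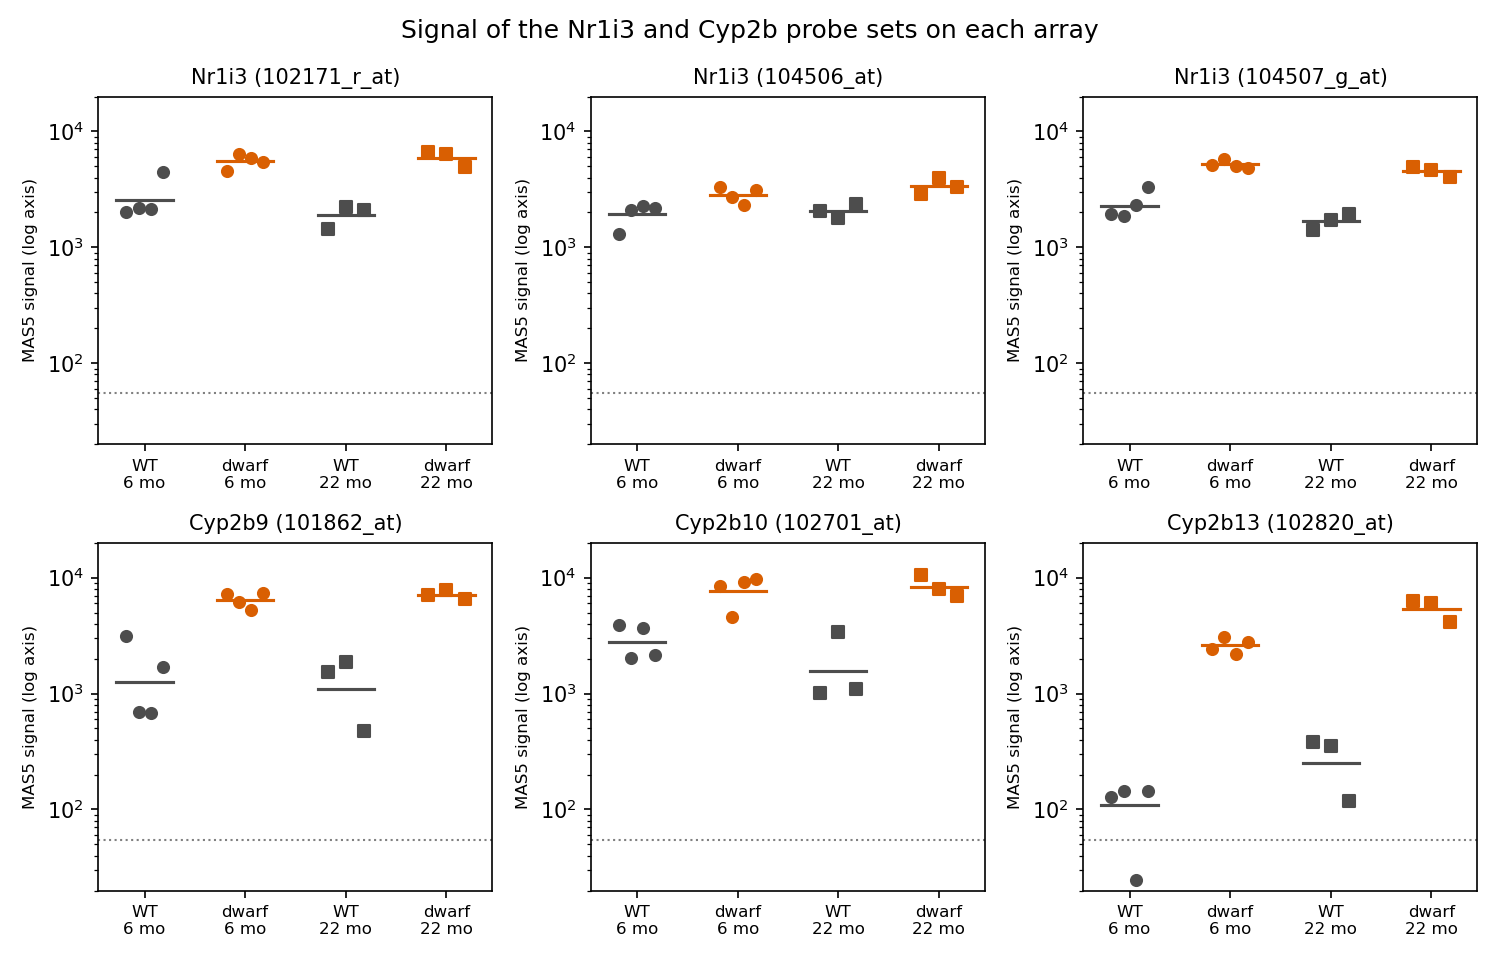
Signal of each of the 6 probe sets on each array (log axis), 1 point per mouse, with a bar at the group's geometric mean after the floor; grey is wild type and orange is dwarf, circles are 6 months and squares 22 months, and the dotted line is the floor of 54.9. In every panel all dwarf mice lie above all wild type mice of the same age, and the gap is widest for Cyp2b13.

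Nr1i3 was measured by 3 probe sets. The probe set 104507_g_at read 1930.3, 1866.0, 2299.7 and 3332.4 in wild type mice 82, 84, 86 and 88 of 6 months, and 5178.2, 5836.1, 4987.1 and 4814.3 in dwarf mice 83, 85, 87 and 89. At 22 months it read 1411.2, 1733.7 and 1947.8 in wild type mice 1, 2 and 24, and 4973.7, 4666.6 and 4054.8 in dwarf mice 3, 4 and 8. The lowest dwarf mouse of either age stood above every wild type mouse, including animal 88, the highest of the wild type group. In limma the log2 difference was 1.18 ± 0.17 (SE; adjusted p = 0.000215), or 2.26-fold, at 6 months (n = 4 and 4). It was 1.43 ± 0.20 (adjusted p = 0.000318), or 2.70-fold, at 22 months (n = 3 and 3).

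The probe set 102171_r_at gave nearly the same picture. Its signals were 2003.6, 2165.0, 2160.5 and 4432.8 in wild type mice 82, 84, 86 and 88, and 4511.6, 6417.0, 5852.8 and 5443.1 in dwarf mice 83, 85, 87 and 89. At 22 months wild type mice 1, 2 and 24 had 1433.9, 2215.8 and 2095.3, and dwarf mice 3, 4 and 8 had 6661.5, 6333.6 and 4946.5. Animal 88 was again the highest wild type mouse, just below the lowest dwarf mouse of its age. The log2 difference was 1.12 ± 0.23 (limma adjusted p = 0.00393) at 6 months and 1.66 ± 0.26 (adjusted p = 0.00118) at 22 months. Without animal 88 the 6-month difference was 1.39 (adjusted p = 9.12e-05).

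The third Nr1i3 probe set, 104506_at, differed less. Wild type mice 82, 84, 86 and 88 had 1308.7, 2087.1, 2290.4 and 2171.0, and dwarf mice 83, 85, 87 and 89 had 3345.7, 2741.9, 2314.1 and 3100.4. At 22 months the signals were 2075.8, 1790.4 and 2364.5 in wild type mice 1, 2 and 24, against 2880.5, 3934.9 and 3319.7 in dwarf mice 3, 4 and 8. The genotypes did not overlap, but at 6 months dwarf animal 87 stood only just above wild type animal 86. The log2 difference was 0.57 ± 0.18 at 6 months, 1.48-fold, at the edge of the threshold (limma adjusted p = 0.0489). At 22 months it was 0.70 ± 0.21, 1.62-fold, and did not pass (adjusted p = 0.0964). The 6-month call was lost when any of 11 arrays was left out, with differences of 0.39 without animal 82 and 0.61 without animal 84, 0.49, 0.59 and 0.53 without dwarf animals 83, 85 and 89, and 0.57 without any 1 of the 6 mice of 22 months, whose arrays enter only through the shared spread. It was also lost when all arrays were brought to one median (0.37, adjusted p = 0.224). Without animal 82 the 22-month difference passed at an unaltered 0.70 (adjusted p = 0.0344).

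The 3 Nr1i3 probe sets were compared within each array, by the log2 signal of one minus that of another. The difference of 104507_g_at over 104506_at was 0.26 ± 0.39 (SD) in 6-month wild type and 0.87 ± 0.27 in 6-month dwarf livers. At 22 months the values were -0.29 ± 0.26 and 0.44 ± 0.30. All dwarf mice were above all wild type mice of the same age. Averaged over ages, the genotype difference of 104506_at minus that of 104507_g_at was -0.67 on the log2 scale (exact two-sided permutation within ages, p = 0.00143, adjusted p = 0.00357 over 15 pairs; 0.00143 is the smallest p that 1400 regroupings can give). That of 102171_r_at exceeded it by 0.75 (exact permutation p = 0.0114, adjusted p = 0.0214). Between 102171_r_at and 104507_g_at the difference was 0.08 (exact permutation p = 0.423, adjusted p = 0.423). These 15 pairs were chosen after the signals had been seen. The suffixes mark sets that share probes or relax the rules of probe choice, and the probe sequences were not analysed here.

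**Figure D2:**
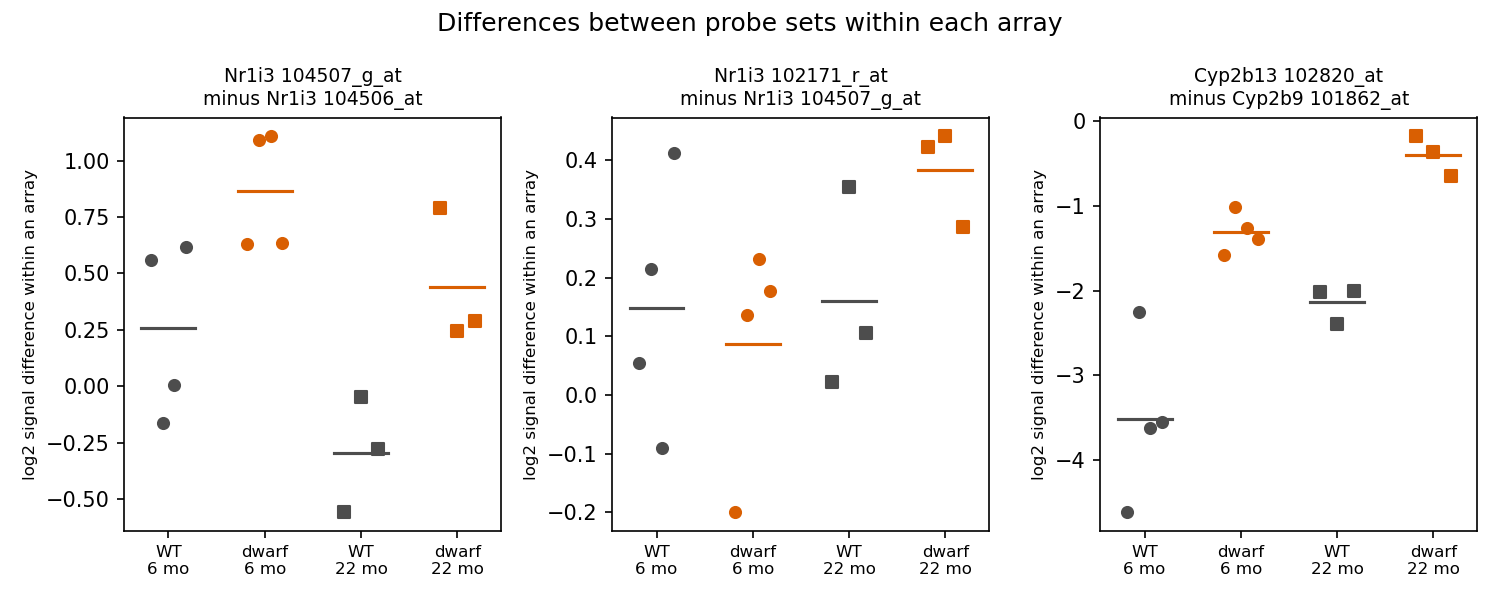
Log2 signal of one probe set minus another on the same array, 1 point per mouse with the group mean as a bar; grey is wild type, orange is dwarf, circles are 6 months and squares 22 months. The left and right panels separate the genotypes at each age, while in the middle panel, for 102171_r_at minus 104507_g_at, the 6-month groups overlap and the 3 dwarf mice of 22 months span 0.29 to 0.44.

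Cyp2b10 was higher in every dwarf mouse, with a wide spread in both genotypes. At 6 months wild type mice 82, 84, 86 and 88 had 3908.4, 2030.3, 3660.4 and 2140.7, and dwarf mice 83, 85, 87 and 89 had 8399.2, 4606.3, 9086.3 and 9749.5. At 22 months wild type mice 1, 2 and 24 had 1004.1, 3397.4 and 1093.0, and dwarf mice 3, 4 and 8 had 10564.9, 8018.1 and 6877.0. Dwarf animal 85 and wild type animal 2 stood apart from their groups towards the other genotype, and neither crossed over. The log2 difference was 1.45 ± 0.35, 2.72-fold, at 6 months (limma adjusted p = 0.0123) and 2.43 ± 0.41, 5.39-fold, at 22 months (adjusted p = 0.00181). With no limit on low signals, which raises the number of probe sets tested, the 6-month adjusted p was 0.0607.

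Cyp2b9 signals of wild type mice spread more widely than those of dwarf mice. Wild type mice 82, 84, 86 and 88 had 3120.3, 692.1, 676.1 and 1683.9, and dwarf mice 83, 85, 87 and 89 had 7273.2, 6207.0, 5246.0 and 7330.1. At 22 months wild type mice 1, 2 and 24 had 1530.9, 1864.2 and 472.7, and dwarf mice 3, 4 and 8 had 7129.5, 7826.1 and 6522.3. The coefficient of variation was 74.7% and 56.4% in wild type mice of 6 and 22 months, and 15.2% and 9.11% in dwarf mice. No test of the spread was run. The log2 difference was 2.37 ± 0.44, 5.15-fold, at 6 months (limma adjusted p = 0.00229) and 2.69 ± 0.51, 6.46-fold, at 22 months (adjusted p = 0.00561). With no limit on low signals the 22-month adjusted p was 0.0642.

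Cyp2b13 had the largest difference. At 6 months wild type mice 82, 84, 86 and 88 had 128.3, 145.4, 24.8 and 143.5, and dwarf mice 83, 85, 87 and 89 had 2430.9, 3074.4, 2178.5 and 2801.6. Wild type mice 1, 2 and 24 had 379.2, 353.9 and 117.6 at 22 months, and dwarf mice 3, 4 and 8 had 6274.0, 6060.5 and 4142.7. Wild type livers were near the low end of the array, and animal 86 was below the floor of 54.9. Dwarf livers were far above them at both ages. The log2 difference was 4.56 ± 0.35, 23.6-fold (95% interval 14.05 to 39.7), at 6 months (limma adjusted p = 3.66e-07) and 4.43 ± 0.41, 21.5-fold (11.8 to 39.2), at 22 months (adjusted p = 4.97e-06). Among the 7227 tested probe sets this was the third largest increase at 6 months and the fourth largest at 22 months. The 6-month size and interval rest in part on the floor, to which animal 86 was set. The 6-month difference was 4.85 with the floor at the 10th percentile and 4.14 on the log2(signal + 50) scale. At 22 months these were 4.43 and 4.15.

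The wild type animals did not fall in one order for all 3 Cyp2b genes. Animal 82 had the highest Cyp2b9 and Cyp2b10 of its group, but animal 86 had the lowest Cyp2b9 and Cyp2b13 and the second highest Cyp2b10. At 22 months animal 2 had the highest Cyp2b9 and Cyp2b10, and animal 24 the lowest Cyp2b9 and Cyp2b13. Animal 88, the highest of its group on Nr1i3 102171_r_at and 104507_g_at but not on 104506_at, was not the highest for Cyp2b9 or Cyp2b10. In dwarf mice of 6 months animal 85 had the lowest Cyp2b10 and the highest Cyp2b13 and Nr1i3 104507_g_at.

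**Figure D3:**
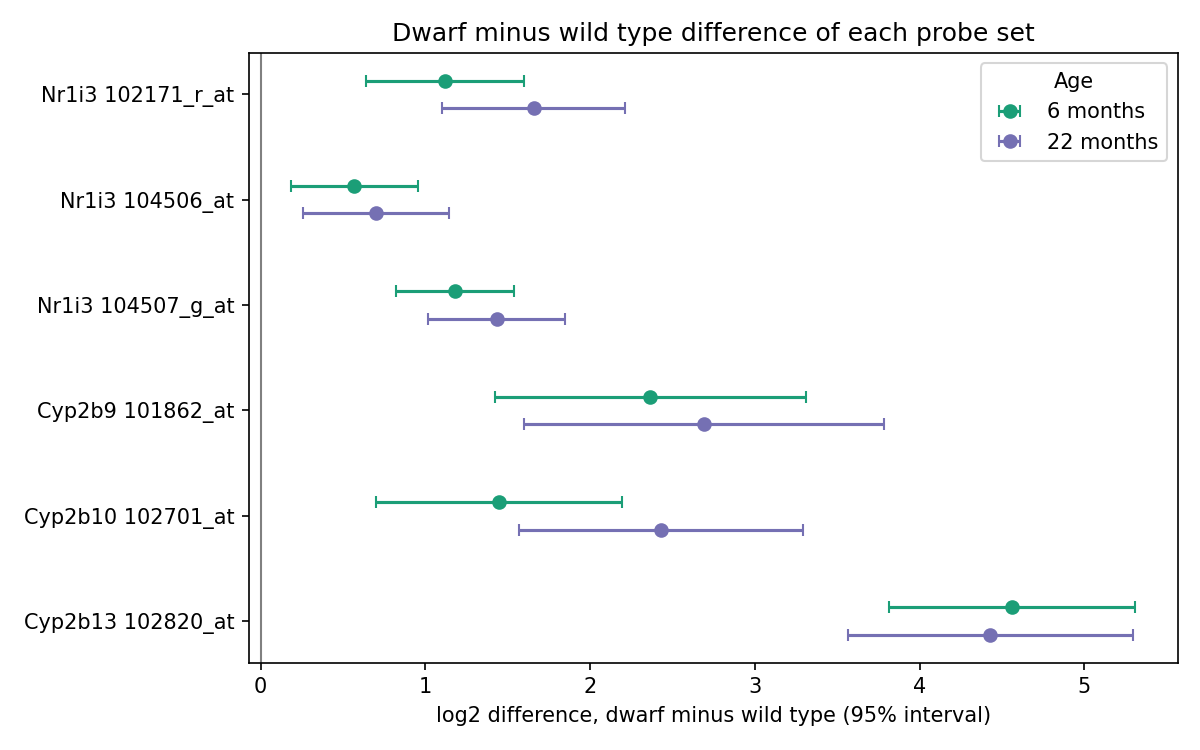
Log2 difference of dwarf minus wild type mice for each probe set at 6 months (green) and 22 months (purple), with 95% intervals from limma. All 12 intervals lie above 0. The Cyp2b13 differences, 4.56 and 4.43, stand above those of the other probe sets, and the intervals of the 2 ages overlap for each.

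The size of the genotype difference was unequal between the Cyp2b genes. Averaged over ages, Cyp2b13 exceeded Cyp2b9 by 1.97 on the log2 scale, or 3.91-fold, and Cyp2b10 by 2.56, or 5.88-fold (exact permutation adjusted p = 0.00357 for each). Within arrays, Cyp2b13 minus Cyp2b9 was -3.51 ± 0.97 (SD) in 6-month wild type and -1.31 ± 0.24 in 6-month dwarf livers. At 22 months it was -2.14 ± 0.22 and -0.40 ± 0.24, and the genotypes did not overlap at either age. Cyp2b9 and Cyp2b10 differed by 0.59 (exact permutation adjusted p = 0.182), and by 0.87 (adjusted p = 0.0268) without wild type animal 1. The pair with 99.2% identical promoter windows, Cyp2b9 and Cyp2b13, thus had unequal differences. Transcripts of these close relatives can bind each other's probes, so the share of each gene in a signal is uncertain.

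Nr1i3 differed less than Cyp2b13 and Cyp2b9 on all 3 probe sets. Its differences were also smaller than that of Cyp2b10 on all 3, but only the comparison with 104506_at passed. Against Cyp2b13 the 3 Nr1i3 probe sets differed by -3.11 to -3.86 on the log2 scale (exact permutation adjusted p = 0.00357 for each). Against Cyp2b9 they differed by -1.14 to -1.89 (adjusted p = 0.0153 to 0.0292). The smallest of these, -1.14 for 102171_r_at, lost the call without animal 84, 86, 88, 83, 89, 24, 4 or 8 (differences of -0.80 to -1.13, adjusted p = 0.0506 to 0.0584). Against Cyp2b10, 104506_at differed by -1.30 (exact permutation adjusted p = 0.0214) and lost the call without dwarf animal 3, 4 or 8, while 102171_r_at and 104507_g_at differed by -0.55 and -0.63 (adjusted p = 0.182 and 0.159).

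Age was examined within each genotype, and whether the genotype difference changed with age by the interaction. By limma, 0 of 6 probe sets passed with age in wild type mice (background 2.49% of all tested; 3 of 6 at an unadjusted p under 0.05). In dwarf mice 0 of 6 passed (background 16.5%; 1 of 6 unadjusted), and for the interaction 0 of 6 (background 2.19%; 0 of 6 unadjusted). Cyp2b13 came nearest: it read 1.06 ± 0.38 higher on the log2 scale in dwarf mice of 22 than of 6 months (adjusted p = 0.0685), without overlap, as did 12.6% of all tested. In wild type mice it was 1.19 ± 0.38 higher (adjusted p = 0.109), with overlap, and its interaction was -0.13 ± 0.54 (adjusted p = 0.947). In a fit of the dwarf mice alone the Cyp2b13 age difference passed (adjusted p = 0.00924). It also passed in dwarf mice without wild type animal 86 (adjusted p = 0.038) or 24 (adjusted p = 0.0254), and in wild type mice without animal 24 (1.73, adjusted p = 0.028).

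Cyp2b10 differed by -0.86 ± 0.38 between 22 and 6 months in wild type mice (limma adjusted p = 0.252), and by -1.42 without animal 2 (adjusted p = 0.0457). Its interaction was 0.98 ± 0.54 (adjusted p = 0.424), with a 95% interval from -0.16 to 2.12. For Cyp2b9 the interval of the interaction ran from -1.12 to 1.77.

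The order of the group means was the same for 102171_r_at, Cyp2b9 and Cyp2b10: dwarf 22 months, dwarf 6 months, wild type 6 months, wild type 22 months. For 104507_g_at the dwarf groups were in the opposite order, for 104506_at the wild type groups, and for Cyp2b13 the 22-month group was the higher in each genotype. Group means of Cyp2b10, for example, were 8487 ± 1888 (SD, n = 3), 7960 ± 2303 (n = 4), 2935 ± 987.1 (n = 4) and 1832 ± 1357 (n = 3). The ages of one genotype were neighbours in this order and overlapped for every probe set, except Cyp2b13 in dwarf mice. The step from wild type to dwarf was free of overlap for every probe set at each age.

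RNA quality controls and cell markers were read beside these results. The mean log2 ratio of 3′ to 5′ signal of Gapdh and beta-actin ran from -0.04 to 1.02 in 6-month wild type livers, from 0.79 to 1.13 in 6-month dwarf livers and from 0.02 to 0.48 in those of 22 months. The 18S control probes did not overlap between the ages, reading 45.8 to 162.7 on the 6-month arrays and 184.5 to 1147.4 on the 22-month arrays. Age and 18S level cannot be told apart by array. With 18S as a covariate the probe sets passing with age fell from 180 to 5 in wild type mice and from 1193 to 128 in dwarf mice. Animal 88, the wild type mouse with the highest Nr1i3 on 2 probe sets, had the lowest ratio of all arrays. With this ratio as a covariate, 5 of 6 probe sets still passed at 6 months and at 22 months, and 104506_at was at 0.49 (limma adjusted p = 0.134) and 0.74 (adjusted p = 0.0814). Scaling to a common median shifted the median of all tested probe sets at 6 months from 0.10 to -0.10 and the split of calls from 460 higher and 502 lower to 188 and 846. Under it the other 5 probe sets still passed, with differences of 0.92 to 4.38.

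Cyp2b genes are expressed mostly by hepatocytes around the central vein. Of 9 markers of these pericentral hepatocytes 6 were tested, and 2 passed as higher at 6 months, Cyp2e1 and Cyp1a2 (background 6.30% of genes), and 0 at 22 months (background 1.39%; 3 of 6 had an unadjusted p under 0.05 at each age). Cyp1a2 stands in the list of CAR and PXR targets as well. The summed signal of the 7 pericentral markers on the array at 6 months was 40385.9 to 54220.4 in wild type livers and 67523.6 to 91871.1 in dwarf livers, without overlap. At 22 months it was 40781.6 to 52859.9 and 47870.1 to 64545.0, with overlap. The sum of the 7 periportal markers was 82962.0 to 100764.4 and 104919.9 to 144789.0 at 6 months, and 80061.7 to 99233.8 and 87556.2 to 98204.1 at 22 months. Of these 7, 2 passed as higher at 6 months (Cps1 and Alb, background 6.30%) and 1 as lower (Cyp2f2, background 7.09%). At 22 months 0 passed as higher (background 1.39%) and 1 as lower, again Cyp2f2 (background 1.48%). Cyp2f2 had log2 differences of -2.70 (limma adjusted p = 1.25e-06) at 6 months and -2.08 (adjusted p = 0.000199) at 22 months. The sum thus does not show the direction of every marker. The bile duct markers Epcam, Krt19 and Krt7 were at the floor on all 14 arrays. The part of zonation in the Cyp2b difference was not tested.

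Markers of other cells also moved with genotype at 6 months. Over all genes 6.30% passed as higher and 7.09% as lower at this age. The summed signal of general hepatocyte markers was 129401.0 to 153453.9 in wild type and 149457.1 to 196771.5 in dwarf livers, and 3 of 7 passed as higher (Alb, Apoa1 and Apoa2) and 1 as lower (Fgb). Endothelial markers, 8 on the array, summed to 3324.7 to 4161.7 in wild type and 4173.8 to 5349.3 in dwarf livers. Of 5 tested, 3 passed as higher (Stab1, Ramp2 and Kdr). Lymphocyte markers, 9 on the array, summed to 1268.7 to 1923.0 and 2171.7 to 2621.3. Of 4 tested, 2 passed as higher (Ighm and Cd79b). At 22 months no marker of these 3 lists passed by limma (background 1.39% higher and 1.48% lower). Of them Fgb, Kdr, Eng and Ighm had an unadjusted p under 0.05. The sums of endothelial markers at 22 months were 3899.8 to 4178.4 in wild type and 3404.0 to 3744.2 in dwarf livers, the opposite order. Of 7 tested markers of Kupffer cells and macrophages 0 passed at 6 months. At 22 months 1 passed as lower, Clec4f, with a log2 difference of -1.16 (limma adjusted p = 0.0196). At that age 0 of the 7 had a positive difference, and the median was -0.875 against 0.00 over all genes. C1qb, Cd5l, C1qa and Csf1r also had an unadjusted p under 0.05 at 22 months. The summed signal of the 9 such markers on the array was then 5889.3 to 9645.9 in wild type and 4054.7 to 5314.3 in dwarf livers, without overlap. Of 3 red blood cell markers 1 passed as lower at 6 months (Alas2, -2.48, adjusted p = 7.72e-07) and 0 at 22 months. Of 4 stellate cell markers 1 passed as higher at 6 months (Reln, 0.83, adjusted p = 0.00393) and 0 at 22 months. The part of these markers in the Nr1i3 and Cyp2b differences, which passed at both ages except for 104506_at at 22 months, was not tested.

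CAR's partners and regulators were taken as a list of 28 genes, of which 19 were on the array and 12 tested. In dwarf mice 1 of 12 passed as lower (background over all genes 7.09% at 6 months and 1.48% at 22 months) and 0 as higher at either age (2 of 12 had an unadjusted p under 0.05 at 6 months and 1 at 22), with a median log2 difference of 0.03 against 0.09 over all genes at 6 months and 0.03 against 0.00 at 22 months. The gene that fell was Egfr, the receptor whose signalling holds CAR outside the nucleus. Its signal was 1275 ± 113.1 (SD, n = 4) in wild type livers of 6 months and 51.9 ± 10.3 (n = 4) in dwarf livers, of which 2 of 4 were at the floor (limma adjusted p = 3.14e-09). The fitted log2 difference of -4.48 ± 0.22 rests on the floor and was -4.64 with the floor at the 10th percentile and -3.70 on the log2(signal + 50) scale. At 22 months wild type mice had 1209 ± 515.6 (n = 3) and all 3 dwarf mice were at or below the floor, so Egfr was at least 20.7-fold lower (adjusted p = 3.87e-08). Rxra, the partner with which CAR binds DNA, read 0.61 ± 0.36 higher at 6 months (adjusted p = 0.278) and 0.51 ± 0.42 higher at 22 months (adjusted p = 0.735). Without animal 88, whose Rxra signal of 1423.5 was the highest of its group, the 6-month difference of Rxra was 1.06 (adjusted p = 0.0151).

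Among the other ligand-sensing nuclear receptors, 11 of 20 were tested. At 6 months 3 passed as higher and 0 as lower (background 6.30% higher; median 0.35 against 0.09 over all genes). At 22 months 1 passed as higher and 0 as lower (background 1.39% higher; median -0.08 against 0.00). Pparg, a receptor of fat storage, was 1.33 ± 0.36 higher at 6 months (limma adjusted p = 0.0225) and 1.76 ± 0.42 higher at 22 months (adjusted p = 0.0276), at low signals of 142.8 to 295.7 in dwarf mice. Wild type Pparg was at the floor in 2 of 4 and 1 of 3 mice, and with the floor at the 10th percentile the differences were 1.61 (adjusted p = 0.0609) and 2.24 (adjusted p = 0.0708). Its 22-month call was lost without any 1 of the 6 mice of that age (1.55 to 1.89), and its 6-month call without animal 86, 88 or 89 (1.13 to 1.16). Nr1i2, which encodes PXR, the closest relative of CAR, read 0.72 ± 0.24 higher (adjusted p = 0.0564) and 0.94 ± 0.27 higher (adjusted p = 0.0866). Averaged over ages Nr1i2 passed as higher, at 0.83 ± 0.18 (limma adjusted p = 0.0069). Its 6-month difference passed without animal 88 (0.88, adjusted p = 0.0276) or animal 2 (0.72, adjusted p = 0.0483), and its 22-month difference without animal 86 (0.94, adjusted p = 0.0211). Thra and Nr5a2 passed at 6 months at 0.55 ± 0.16 (adjusted p = 0.0321) and 0.49 ± 0.15 (adjusted p = 0.0434), and lost the call when all arrays were brought to one median (0.35 and 0.29). Thra was also lost without animal 82, 88, 83, 85 or 87 (0.47 to 0.56), and Nr5a2 without animal 82, 84, 88, 83, 87, 89, 24, 4 or 8 (0.40 to 0.50).

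Target genes of CAR and PXR outside the Cyp2b subfamily were read from a list of 40 genes, of which 25 were on the array and 23 tested. At 6 months 10 of 23 passed as higher and 3 as lower, with a median log2 difference of 0.63 against 0.09 over all 5473 genes (background 6.30% higher and 7.09% lower). At 22 months 11 passed as higher and 0 as lower, with a median of 0.72 against 0.00 (background 1.39% higher and 1.48% lower). The members of this list were chosen knowing earlier results of these arrays, so the counts are a description.

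The tested genes of this list are mostly enzymes of drug clearance by choice, and so were those that passed at both ages. Sult2a2, a sulfotransferase of steroids and bile acids, was 3.74 ± 0.41 higher on the log2 scale at 6 months (limma adjusted p = 1.66e-05) and 4.81 ± 0.47 higher at 22 months (adjusted p = 9.8e-06). Wild type Sult2a2 was at the floor in 2 of 4 mice of 6 months and 2 of 3 of 22 months, so these sizes rest on the floor, and with it at the 10th percentile they were 4.19 and 5.77. Cyp2c39 was 1.63 ± 0.17 and 2.10 ± 0.19 higher (adjusted p = 7.03e-06 and 4.97e-06), and Cyp2c38 1.46 ± 0.17 and 1.27 ± 0.19 (adjusted p = 2.41e-05 and 0.000833). The glutathione transferases Gstm1 and Gstm3 were both 0.80 higher at 6 months (SE 0.12 and 0.14; adjusted p = 0.00031 and 0.000967) and 0.64 ± 0.14 and 1.70 ± 0.16 higher at 22 months (adjusted p = 0.0148 and 4.97e-06). The 22-month call of Gstm1 was lost without wild type animal 2 (0.61) or 24 (0.57) or dwarf animal 3 (0.57). The probe sets of Cyp2c38, Gstm1 and Gstm3 carry the suffix f_at, and which related genes each reads was not analysed.

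**Figure D4:**
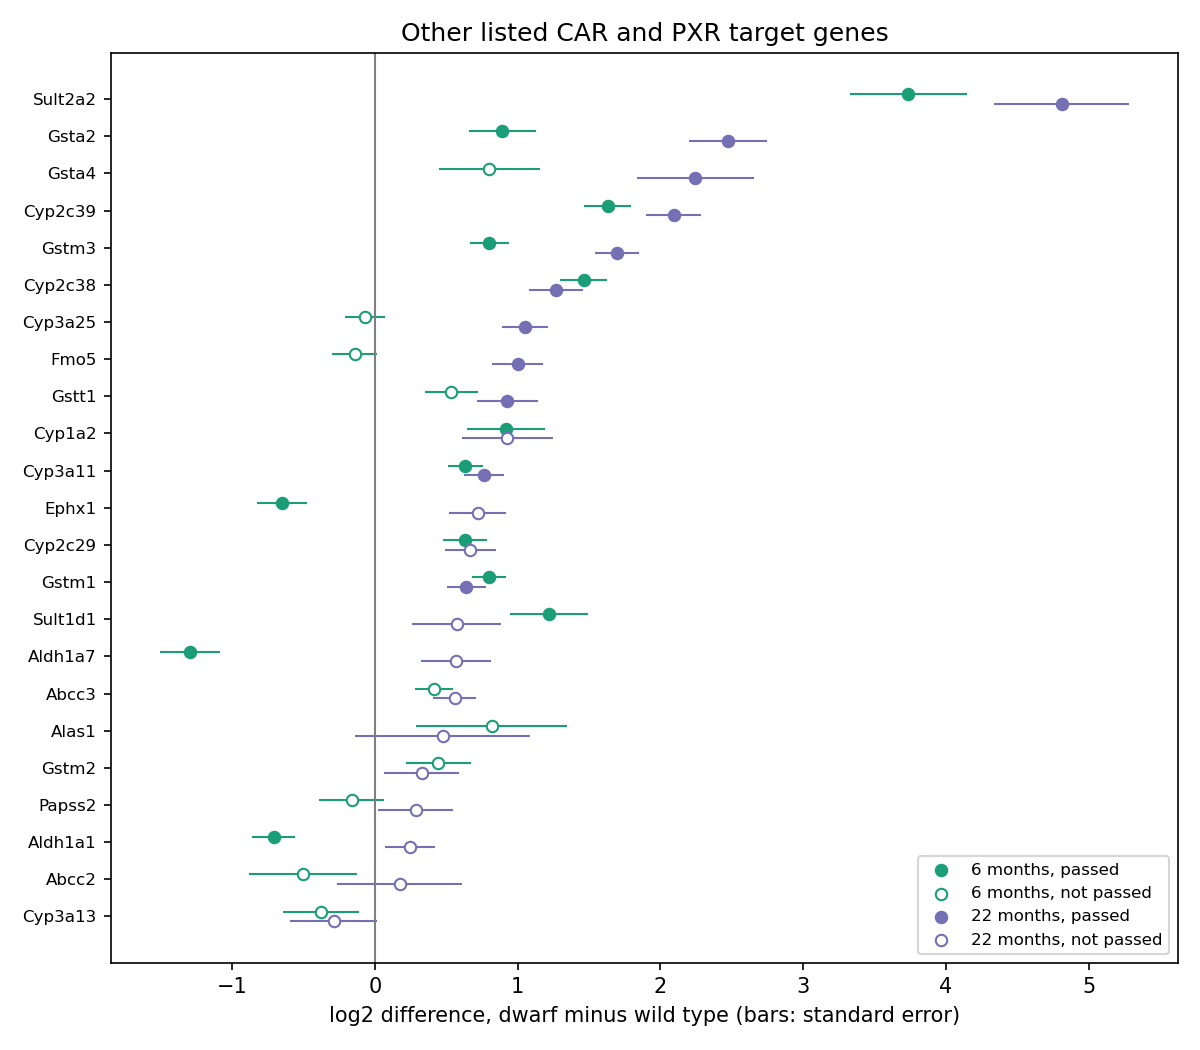
Log2 difference of dwarf minus wild type mice, with standard errors, for the 23 tested CAR and PXR target genes outside the Cyp2b subfamily; green is 6 months, purple is 22 months, and filled points passed at an adjusted p under 0.05. At 6 months 10 genes passed to the right of 0 and 3 to the left, and at 22 months 11 passed to the right and 0 to the left.

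Of these 23 genes 7 passed the interaction, all with a more positive genotype difference at 22 than at 6 months (background 1.75% higher). For Aldh1a7, Aldh1a1 and Ephx1 the difference was negative and passed at 6 months and was positive at 22 months, where it did not pass. Aldh1a7, an aldehyde dehydrogenase, had a log2 difference of -1.30 ± 0.21 at 6 months (limma adjusted p = 0.000699) and of 0.57 ± 0.24 at 22 months, which did not pass (adjusted p = 0.323). Its interaction was 1.86 ± 0.32 (adjusted p = 0.00869). Cyp3a25, Ephx1 and Fmo5, a cytochrome P450, an epoxide hydrolase and a flavin monooxygenase, had interactions of 1.12 ± 0.21 (adjusted p = 0.0152), 1.37 ± 0.27 (adjusted p = 0.0172) and 1.14 ± 0.24 (adjusted p = 0.0225). Without dwarf animal 3 these were 1.05, 1.31 and 1.15 (adjusted p = 0.0529, 0.0569 and 0.0626), and Fmo5 was also lost without animal 24 or 8 (1.07 and 1.00). Whether the interaction differs between these genes and the Cyp2b genes was not tested.

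Of 6 genes that CAR activation is known to lower, 5 were tested and 0 passed in either direction at 6 or 22 months by limma (1 and 0 of 5 at an unadjusted p under 0.05). The background was 6.30% higher and 7.09% lower at 6 months and 1.39% and 1.48% at 22 months. A count of 0 of 5 is near these shares and is not read as a lack of response. The medians were 0.02 and 0.26 against 0.09 and 0.00 over all genes. Pck1, the rate-limiting enzyme of glucose production, read 0.48 ± 0.21 higher in dwarf mice at 6 months (adjusted p = 0.144) and -0.04 ± 0.25 at 22 months (adjusted p = 0.988).

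Cyp2b9 and Cyp2b13 also belong to the female-biased genes of mouse liver, and other genes of that kind were read from a separate list. Of 16 female-biased genes outside Cyp2b, 9 were on the array and 6 tested. At each age 4 of 6 passed as higher (background 6.30% at 6 months and 1.39% at 22 months) and 0 as lower, with medians of 2.82 and 3.05 against 0.09 and 0.00 over all genes. Cyp4a14, a fatty acid hydroxylase, was 2.80 ± 0.22 higher at 6 months (limma adjusted p = 4.9e-07) and 4.63 ± 0.26 higher at 22 months (adjusted p = 2.68e-08). Hao2, a peroxisomal oxidase, was 2.83 ± 0.38 higher (adjusted p = 0.000126) and 4.34 ± 0.44 higher (adjusted p = 1.43e-05). At 22 months 2 of 3 wild type mice were at the floor for Hao2, and the difference was 4.96 with the floor at the 10th percentile. Sult2a2 stands in this list as well as in that of CAR and PXR targets.

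Male-biased liver genes went the other way. Of 8 tested, 7 passed as lower at 6 months and 6 at 22 months, and 0 as higher (background 7.09% and 1.48% lower; medians -2.94 and -2.50 against 0.09 and 0.00 over all genes; 7 of 8 had an unadjusted p under 0.05 at each age). Hsd3b5, a steroid dehydrogenase, had a log2 difference of -6.01 ± 0.34 at 6 months (limma adjusted p = 1.21e-08) and of -6.10 ± 0.39 at 22 months (adjusted p = 8.24e-08). At 6 months 1 of 4 dwarf mice was at the floor for Hsd3b5. The 6-month difference was -6.19 with the floor at the 10th percentile and -5.51 on the log2(signal + 50) scale. The urinary pheromone carriers Mup3 and Mup5 fell, with log2 differences of -2.03 and -3.36 at 6 months (adjusted p = 4.9e-07 and 5.81e-08). Their probe sets carry the suffix f_at, and which genes of the family each reads was not analysed. Egfr is a member of this list too. The sex of the mice is not in the labels.

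The genes whose pattern over the 14 arrays lay closest to each member were found by the root mean square of the difference between their log2 signals, each centred on its own mean. For Nr1i3 104507_g_at the nearest genes were Agt (0.32), which encodes angiotensinogen, and the matrix gene Fbln2 (0.33). For 102171_r_at they were Agt (0.40) and the monocarboxylate transporter Slc16a7 (0.40). These 2 probe sets of Nr1i3 were nearer to each other (0.19) than to any other gene. The third, 104506_at, lay nearest to Pon1 (0.19), which encodes paraoxonase. Its distance to the other 2 Nr1i3 probe sets, 0.55 and 0.49, would stand at rank 63 among the genes nearest to 102171_r_at and at rank 64 among those nearest to 104507_g_at. Among the genes nearest to 104506_at itself, 102171_r_at would stand at rank 2938 and 104507_g_at at rank 2025.

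Cyp2b10 lay nearest to Cyp2c39 (0.51), Plin4 (0.58), a lipid droplet protein, and Cyp2c38 (0.59). Its own subfamily members were farther, at 0.76 for Cyp2b9 and 1.69 for Cyp2b13. For Cyp2b9 the nearest genes were Hao2 (0.70) and Mgst3 (0.74), a microsomal glutathione transferase, and Cyp2b10 would stand at rank 4. Cyp2b13 lay nearest to Sult2a2 (0.68), then Hao2 (1.08) and Pcp4l1 (1.18), and its distance to Cyp2b9 was 1.25. All these distances are descriptions over the same 14 arrays, in which genotype makes up much of the spread.

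Of the genes around the Cyp2b genes on chromosome 7 in RefSeq order, Ceacam2, Bckdha and Exosc5 were tested and 0 of 3 passed at either age. Exosc5, a subunit of the RNA exosome, came nearest at 0.40 at 6 months (limma adjusted p = 0.0523). The gene beside Cyp2b10, Cyp2s1, was on the array and too low to be tested.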

How the data were processed

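Liver RNA of 14 mice, 1 per array, was hybridised to Affymetrix arrays. The deposited values are signal intensities per probe set on a linear scale, made by the authors with MAS 5, per the submitters' processing notes. Each array has the same trimmed mean (500.357 to 500.437, leaving out 2% at each end), while medians ran from 166.8 to 221.1. The number of arrays limits the precision.

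From these values, signals were floored at the 25th percentile over all arrays (54.9), which set 19.5% to 27.9% of an array to the floor, and taken to log2. Leaving aside 66 controls, 7227 probe sets above the pooled median (184.8) on at least 3 arrays were tested. In R 4.3.3, limma 3.58.1 was fitted with 1 mean per group over all 14 arrays (eBayes with an intensity trend), with Benjamini-Hochberg adjustment within each comparison and a threshold of 0.05. Differences between probe sets in their genotype difference were tested by exact two-sided permutation of genotypes within ages. In limma a p-value sets a difference against the spread between mice, pooled over all groups and moderated across probe sets. By permutation it is the share of regroupings with a difference at least as large. Gene symbols came from the array annotation: 10855 probe sets had 1 symbol, 396 several and 1237 were not listed. A gene in a list was represented by its tested probe set of highest mean signal, which gave 5473 genes.

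All member probe sets were named. From each pathway list the text names passed genes among those of smallest p, and any measured partner of CAR or nuclear receptor. Likeness names come from the nearest 5 genes, and the cell type markers were named after their values were seen. The members and lists were chosen with earlier results of these data known. Promoters were aligned with Biopython 1.88 in Python 3.11.15. Tested on simulated data with 7227 probe sets, the fit for 6 months recovered 64.2% of 2-fold and 89.4% of 4-fold changes, and that for 22 months 35.8% and 90.9%. Alternatives covered normalization, floor, filter, variance model, covariates, the groups in the fit and leaving out each array.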

Additional observations from a re-analysis of the deposited data

Results flagged for a closer look

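In 3 of 93 groups of 4 mice tested, over 47 probe sets, 1 mouse lay far from the others, where chance gives about 1 in 20. All 3 were wild type mice of 6 months and probe sets of Nr1i3 or Cyp2b13. Nr1i3 102171_r_at read 4432.8 in animal 88 against 2003.6 to 2165.0 in the other mice, a gap of 0.902 of the range. Nr1i3 104506_at read 1308.7 in animal 82 against 2087.1 to 2290.4, a gap of 0.834 of the range. Cyp2b13 read 24.8 in animal 86 against 128.3 to 145.4, a gap of 0.872 of the range, on a scale where 54.9 was the floor.

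The genotype difference changed with age, by the limma interaction, for 7 targets of CAR and PXR and for 1 female-biased gene. On the log2 scale the interaction was 1.862 for Aldh1a7, 1.578 for Gsta2, 1.371 for Ephx1, 1.141 for Fmo5, 1.124 for Cyp3a25, 0.955 for Aldh1a1 and 0.897 for Gstm3. For Cyp4a14 it was 1.828 (adjusted p = 0.0147). Without dwarf animal 3 the interaction of Cyp4a14 was 1.70 (adjusted p = 0.0511). Of 24 alternatives, the call was lost in 0 for Aldh1a7, 1 for Cyp3a25, 2 for Ephx1, 3 for Cyp4a14, 7 for Fmo5, 11 for Gstm3, 13 for Gsta2 and 15 for Aldh1a1.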

How the results depend on the processing

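The genotype differences of Nr1i3 102171_r_at, Nr1i3 104507_g_at and Cyp2b13 passed at both ages under all 25 alternatives, as did Cyp2b9 at 6 months and Cyp2b10 at 22 months. With no filter, Cyp2b10 at 6 months (1.45, adjusted p = 0.0607) and Cyp2b9 at 22 months (2.69, adjusted p = 0.0642) did not pass. Nr1i3 104506_at at 6 months did not pass with common median scaling (0.37), array weights (0.52) or the 3′ to 5′ ratio (0.49), nor, at 0.57, with no filter, no intensity trend, the 18S covariate or only the compared groups. Leaving out arrays gave 0.39 to 0.67. At 22 months it passed with array weights (0.71), and leaving out arrays gave 0.58 to 0.81.

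Counts over all probe sets moved more. The 962 at 6 months became 630 with only the compared groups (711 to 1098 leaving out arrays), and the 212 at 22 months became 442 with array weights (127 to 241 leaving out arrays, lowest without dwarf animal 3). The 180 with age in wild type mice became 106 with common median scaling, 102 with no filter, 90 with no trend, 472 with array weights, 5 with 18S and 76 with only the compared groups (60 to 457 leaving out arrays, highest without animal 88). The 1193 with age in dwarf mice became 128 with 18S and 51 with the 3′ to 5′ ratio (521 to 1451). The 158 interactions became 69 with no filter, 64 with no trend and 57 with the ratio (48 to 169). Common median scaling changed the split of higher and lower calls from 574 and 619 to 925 and 242 for age in dwarf mice, from 111 and 47 to 156 and 18 for the interaction, and from 336 and 406 to 186 and 543 for the average over ages.

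Age differences of the members, not passed as reported, changed sign in places. In wild type mice Cyp2b9 was at 0.005 with array weights (-0.56 to 0.43 leaving out arrays), Nr1i3 104506_at ran from -0.08 to 0.21, Cyp2b10 from -1.42 to -0.54 and Cyp2b13 from 0.85 to 1.73. In dwarf mice 18S gave -0.30 for Nr1i3 102171_r_at, -0.051 for Cyp2b9 and -0.34 for Cyp2b10 (-0.12 to 0.27 leaving out arrays), the 3′ to 5′ ratio -0.57 for Nr1i3 102171_r_at and -0.57 for Cyp2b9, and common median scaling 0.011 for Nr1i3 104507_g_at. Cyp2b13 passed in dwarf mice with common median scaling (1.26), log2(signal + 50) (1.04) and only the compared groups (1.06), and ran from 0.95 to 1.25 leaving out arrays. Interactions turned to -0.015 for Nr1i3 104507_g_at and -0.15 for Cyp2b9 with the ratio (Cyp2b9 -0.29 to 0.70 leaving out arrays), and to 0.048 and 0.004 for Cyp2b13 with common median scaling and log2(signal + 50) (-0.68 to 0.20). Between probe sets, leaving out arrays gave -1.42 to -0.80 for Nr1i3 102171_r_at minus Cyp2b9, -1.64 to -1.13 for Nr1i3 104506_at minus Cyp2b10 and 0.38 to 0.87 for Cyp2b9 minus Cyp2b10. The cause of these changes was not tested. No paired analysis was possible because the groups share no animal numbers.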
